A study of Mus musculus with 2 samples.

Results

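The genes described here encode the respiratory chain and ATP synthase of the mouse, as measured in the second polar body (PB2) and in the zygote it was detached from. They are all rows of the deposited expression table whose symbol begins with Nduf, Uqcr, Cox4 to Cox8, Atp5 or mt-, together with Sdha, Sdhb, Sdhc and Sdhd, which gives 96 of the 11262 genes in the table. Of these, 78 are nuclear chain genes, 7 are Ndufaf assembly factors of complex I, which are nuclear as well, and 11 are mitochondrially encoded. The choice by symbol made no use of measured values. Cox7a2l, a factor of respiratory supercomplexes, and Atp5s, the coupling factor B, are kept among the 78 although neither is a standard subunit of a complex, so that 76 of the 78 are subunits proper.

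Both libraries came from untreated embryos, labelled C57BL/6, at the late 1-cell stage. Embryos were taken from the oviduct and cultured in KSOM medium, the zona pellucida was dissolved with acid Tyrode's solution, and PB2 was split off by pipetting in trypsin. PB2s and zygotes were collected in pools according to the study's methods, and polyadenylated RNA was amplified as full-length cDNA. With 1 library of each kind there was no replicate, so no error between replicates can be given, no test was run, and every difference below is one between these 2 libraries. Values are TPM, a transcript abundance adjusted for gene length and for the library's total. They are therefore proportions within a library, and a larger share of a transcript cannot be told apart from a smaller share of the others.

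Mitochondria make ATP by passing electrons from NADH and succinate along protein complexes of the inner membrane to oxygen, and by letting the protons pumped on the way flow back through ATP synthase. Complex I oxidises NADH, complex II oxidises succinate, complex III passes electrons from ubiquinone to cytochrome c, complex IV hands them to oxygen, and complex V is ATP synthase. Most subunits are encoded in the nucleus, translated in the cytosol and imported, while a few hydrophobic core subunits of complexes I, III, IV and V are encoded and translated within the mitochondrion. Complex II is wholly nuclear. The oocyte supplies the mitochondria of the early embryo, and these rely on pyruvate and oxidative phosphorylation before implantation.

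The table's values summed to 898326 TPM in PB2 and 927063 in the zygote, that is 89.8% and 92.7% of a full library, so some genes of each library are not in it. The depth of the libraries is unknown. The median gene of the table stood at 11.1 TPM in PB2 and 8.7 in the zygote. As a check of the labelled cells, all 10 egg markers were present in both libraries, with summed levels of 27121 TPM in PB2 and 23321 in the zygote, and none was at 0. Of 14 cumulus and granulosa markers, 3 were in the table, and their summed levels were 75 TPM in PB2 and 74.4 in the zygote, nearly all of it from Cyp19a1, while Cyp11a1 was listed at 0 in the zygote. Of 8 sperm and testis markers, 3 were in the table, with summed levels of 24.5 and 25.9 TPM. The summed somatic and sperm markers were thus close to equal between the libraries, and the 10 egg markers had a median log2 ratio of 0.04, with 5 above 0 and 5 below.

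Nuclear chain transcripts took a smaller share of the PB2 library than of the zygote library. The log2 ratio used throughout is log2 of (PB2 TPM + 1) over (zygote TPM + 1), so that values below 0 are lower in PB2, and it was computed for the 10645 genes with at least 1 TPM in either library, all 96 members among them. The 78 nuclear chain genes had a median log2 ratio of -0.51, against 0.21 for all genes compared. Of the 78, 59 lay below 0, 18 above it, and Ndufb9, an accessory subunit of complex I, had the same level of 50.9 TPM in both libraries. Over all genes compared, 40% lay below 0. Summed, the 78 genes held 9880 TPM in the zygote and 8227 in PB2, or 0.988% and 0.823% of a full library. Their median level was 51.6 TPM in the zygote and 41.1 in PB2.

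Genes past 2-fold, that is with a log2 ratio of 1 or more or of -1 or less, lay mostly toward the zygote. Among the 78 nuclear chain genes, 17 (21.8%) were past 2-fold toward the zygote, where the share over all genes compared was 8.09%. Only 5 (6.41%) were past 2-fold toward PB2, where the share over all genes was 18.9%. The 7 Ndufaf factors were all below 0, with a median of -0.66, and 2 of them were past 2-fold toward the zygote. The 11 mitochondrially encoded genes had a median of -0.85, with 10 of 11 below 0, 4 past 2-fold toward the zygote and none so in PB2. These mitochondrial transcripts summed to 19831 TPM in the zygote and 9151 in PB2, from 1.98% to 0.915% of a full library.

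**Figure D1:**
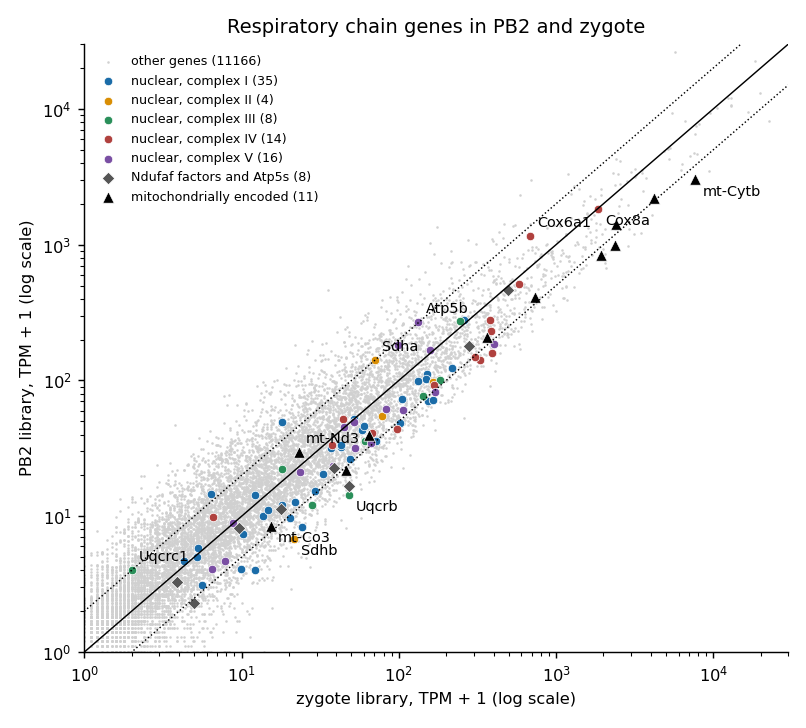
TPM + 1 of every gene in the table in the zygote library (x axis, log scale) and the PB2 library (y axis, log scale), 1 point per gene, with chain genes coloured by complex, Ndufaf factors and Atp5s as diamonds and mitochondrially encoded genes as triangles. The solid line marks equal levels and the dotted lines a 2-fold difference; 76 of the 96 coloured genes lie below the solid line, and 10 of the 11 triangles do.

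The log2 ratio moved with the GC content and the length of transcripts, and chain transcripts are short. Across the 10606 genes with a reference transcript, the log2 ratio rose with GC content (Spearman rho 0.44, across genes of the same 2 libraries) and weakly with length (rho 0.17). Across the 78 nuclear chain genes the values were 0.26 and 0.22. For nuclear chain transcripts the median GC content was 51.1% and the median length 870 nt, against 49.1% and 3067 nt for all genes, and 72 of the 78 were among the shortest 3536 genes when all genes were divided into 3 equal groups by length. Within that shortest group the median log2 ratio was -0.03 for all of them and -0.52 for the 72 chain genes. The group does not match length, as the median was 1586 nt for all of them and 823.5 nt for the 72. With the length trend subtracted their medians were -0.03 and -0.19. Within each of 3 equal groups by GC content, from low to high, the chain genes also lay lower than the rest, with medians of -0.54, -0.76 and -0.42 against -0.19, 0.22 and 0.74.

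With the GC trend subtracted, the nuclear median moved to -0.95, and 30 nuclear chain genes were past 2-fold toward the zygote and 0 in PB2, against 10.5% and 9.53% of all genes. When the GC trend and then the length trend were subtracted, a setting added after the data were seen, the nuclear median was -0.24 and the counts were 6 of 78 higher in the zygote (7.69%) and 3 higher in PB2. The shares over all genes were then 8.55% and 8.38%, so that the count of nuclear chain genes higher in the zygote was near the background. Centred on the median of all genes, the counts were 26 higher in the zygote and 1 in PB2, against 12.1% and 13% of all genes. The share of PB2 among the nuclear chain genes past 2-fold was thus 22.7% of 22 as measured and 3.70% of 27 when centred. It was 0% of 30 without the GC trend and 33.3% of 9 without both trends. Over all genes, 2009 were past 2-fold toward PB2 and 861 toward the zygote as measured, and 1383 and 1291 when centred. Without the GC trend the all-gene counts were 1011 and 1118, and without both trends 889 and 907. What part GC content and length play in the values below was not tested.

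**Figure D2:**
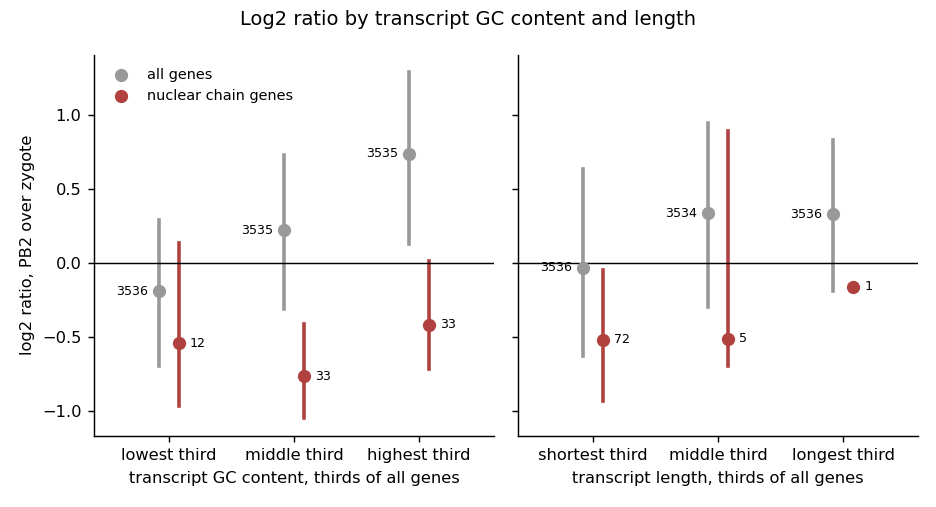
Median log2 ratio (dots, y axis) with the middle 50% of genes (vertical lines) for all genes compared, in grey, and for the nuclear chain genes, in red, with all genes divided into 3 equal groups by transcript GC content (left) and by transcript length (right), with the number of genes beside each dot. The grey medians climb with GC content from -0.19 to 0.74, and the red medians lie below the grey ones in every group. The middle and longest length groups hold only 5 and 1 chain genes.

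Complex I, the NADH dehydrogenase, contributed the most members. A written list of its nuclear subunits holds 37 genes, of which 35 were in the table. Their median log2 ratio was -0.46, with 28 of 35 below 0. Past 2-fold were 8 toward the zygote (22.9%) and 2 toward PB2 (5.71%), against 8.09% and 18.9% of all genes. Core and accessory subunits had different medians. The 6 nuclear core subunits reported here, which belong to the arm that takes electrons from NADH to ubiquinone, had a median of -0.34, and their summed level was 143.1 TPM in the zygote and 115.8 in PB2. The 28 accessory subunits, which surround the core, had a median of -0.52, and their summed level was 1919 TPM in the zygote and 1291 in PB2. All 8 complex I subunits past 2-fold toward the zygote were accessory, as are 28 of the 35 subunits. None of these 28 was past 2-fold toward PB2. With the GC and then the length trend subtracted, 4 of the 28 were past 2-fold toward the zygote, against 8.55% of all genes. With the GC trend subtracted the medians were -0.74 for the core and -0.96 for the accessory subunits, and with the GC and then the length trend subtracted -0.29 and -0.30.

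Ndufv1, which holds the flavin that takes electrons from NADH, was at 5.4 TPM in the zygote and 13.5 in PB2 (log2 ratio 1.18). Its partner in the NADH-oxidising module, Ndufv2, went the other way, with 28.3 TPM in the zygote and 14.3 in PB2 (-0.94). Ndufs1, the large iron-sulfur subunit of the same module, was at 4.6 TPM in the zygote and 2.1 in PB2 (-0.85). Partners within this module thus had ratios of opposite sign. The 3 other core subunits lay closer to equal. Ndufs3 was at 57.4 and 41.9 TPM in zygote and PB2, Ndufs7 at 11.2 and 13.3 TPM, and Ndufs8 at 36.2 and 30.7 TPM. Ndufs7 and Ndufs8 carry iron-sulfur clusters on the path to ubiquinone.

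The accessory subunits past 2-fold toward the zygote were Ndufa12, Ndufb4, Ndufa9, Ndufs5, Ndufb6, Ndufb5, Ndufb3 and Ndufs6. Ndufa12 had the lowest log2 ratio of complex I at -1.61, with 11.2 TPM in the zygote and 3.0 in PB2. Ndufb4 was at 23.4 TPM in the zygote and 7.3 in PB2 (-1.56). Ndufa9, which helps to join the matrix arm to the membrane arm, was at 8.9 and 3.1 TPM (-1.27). The next 2 were more abundant. Ndufs5 was at 162.9 TPM in the zygote and 70.5 in PB2 (-1.20), and Ndufb6 at 152.2 and 69.0 TPM (-1.13). Ndufb3 was at 100.2 and 47.4 TPM (-1.06), Ndufs6 at 70.8 and 34.6 TPM (-1.01) and Ndufb5 at 19.4 and 8.7 TPM (-1.07). Ndufs6 stood just past the 2-fold line. The most abundant nuclear transcript of complex I, Ndufa10, was nearly equal, with 258.0 TPM in the zygote and 275.6 in PB2. The remaining 19 nuclear subunits of complex I lay between -0.89 and 0.13, with 16 of them below 0.

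**Figure D3:**
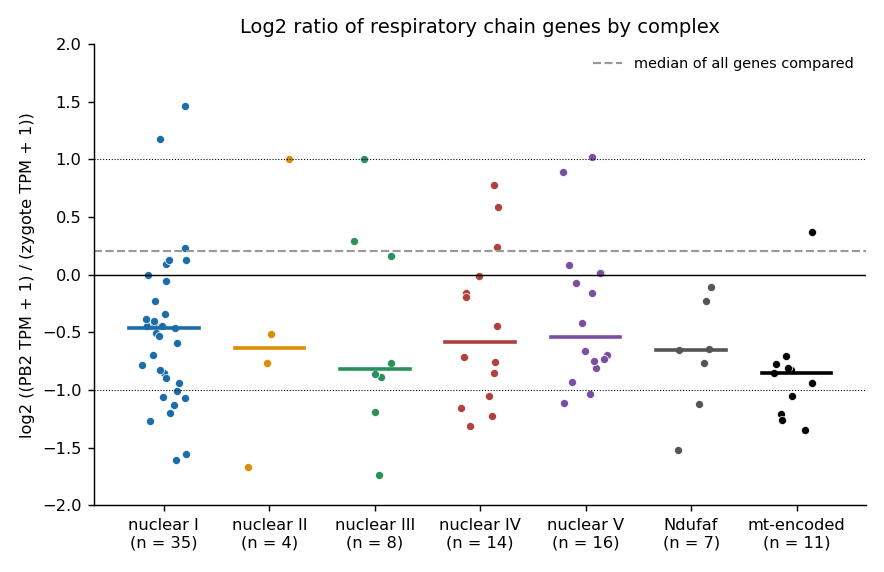
Log2 ratio of PB2 over zygote (y axis) of each nuclear chain gene by complex, of the Ndufaf factors and of the mitochondrially encoded genes, 1 point per gene, with the group median as a horizontal bar, the median of all genes compared (0.21) as a dashed line and 2-fold differences as dotted lines; Atp5s is not drawn. All 7 group medians lie below 0, from -0.46 for nuclear complex I to -0.85 for the mitochondrially encoded genes.

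Complex I is put together with the help of assembly factors, of which 7 share the Ndufaf name and were in the table. Ndufaf2, which binds a late assembly intermediate, was the most abundant of them and nearly equal, with 496.5 TPM in the zygote and 460.2 in PB2. Ndufaf8 had the lowest log2 ratio at -1.52, with 47.0 TPM in the zygote and 15.7 in PB2. Ndufaf5, a hydroxylase acting on Ndufs7, was low in both libraries, at 4.0 TPM in the zygote and 1.3 in PB2 (-1.12). The other 4, Ndufaf3, Ndufaf4, Ndufaf6 and Ndufaf7, lay between -0.77 and -0.23. Of 10 written assembly factors of complex I without this name, 8 were compared. They had a median of -0.73 with 2 past 2-fold toward the zygote (25%, against 8.09% of all genes). They ran from Tmem186 (10.1 TPM in the zygote, 3.9 TPM in PB2, -1.18) to Acad9 (0.4 and 1.2 TPM, 0.65).

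Complex II, succinate dehydrogenase, also serves the tricarboxylic acid cycle, and its 4 subunits did not move together. Sdha, the flavoprotein that oxidises succinate, was at 69.3 TPM in the zygote and 140.0 in PB2 (1.00). Sdhb, the iron-sulfur subunit bound to it, was at 20.6 TPM in the zygote and 5.8 in PB2 (-1.67). These partners thus had ratios of opposite sign, each past 2-fold as measured. Sdha stood just past the 2-fold line. It lay under it when centred (0.79), with the GC trend subtracted (0.87) and with both trends subtracted (0.77). The membrane anchors Sdhc (77.2 TPM in the zygote, 53.8 TPM in PB2) and Sdhd (163.2 and 95.7 TPM) had log2 ratios of -0.51 and -0.76. Together the 4 subunits summed to 330.3 TPM in the zygote and 295.3 in PB2.

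Complex III, the cytochrome bc1 complex, had all 8 of its listed nuclear subunits in the table, with a median of -0.81 and 5 of 8 below 0. Uqcrb, a small subunit near the ubiquinone site, had the lowest log2 ratio of all 96 genes at -1.74, with 47.0 TPM in the zygote and 13.4 in PB2. Uqcrq, another small subunit, was at 26.9 TPM in the zygote and 11.2 in PB2 (-1.19). The larger subunits lay above 0. Uqcrfs1, the Rieske iron-sulfur protein, was at 17.2 and 21.3 TPM in zygote and PB2 (0.29), and the core protein Uqcrc2 at 245.0 and 275.0 TPM (0.17). The other core protein, Uqcrc1, was at 1.0 TPM in the zygote and 3.0 in PB2, exactly on the 2-fold line, and its plain ratio of 3 could lie between 2.81 and 3.21 given the rounding of the table to 1 decimal. The transcripts of the 2 core proteins, which occur in equal numbers in the complex, were far apart in level in both libraries. Uqcr10, Uqcr11 and Uqcrh lay between -0.89 and -0.76.

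Complex IV, cytochrome c oxidase, held the most abundant nuclear transcripts. Of 18 listed nuclear subunits 13 were in the table, and with Cox7a2l the 14 genes had a median of -0.58, with 11 below 0. Past 2-fold were 4 toward the zygote (28.6%) and 0 toward PB2, against 8.09% and 18.9% of all genes. Cox8a was the highest of the nuclear chain genes in either library and equal between them, with 1847 TPM in the zygote and 1828 in PB2. Cox6a1 was at 677.0 TPM in the zygote and 1165 in PB2 (0.78), the highest log2 ratio of the complex. The 4 genes past 2-fold were Ndufa4, Cox7a2l, Cox6c and Cox5b. Ndufa4, once counted with complex I and now with complex IV, was at 392.7 TPM in the zygote and 157.3 in PB2 (-1.31). Cox7a2l was at 328.1 and 139.8 TPM (-1.22), Cox6c at 96.9 and 42.9 TPM (-1.16) and Cox5b, which binds zinc, at 306.1 and 147.3 TPM (-1.05). Cox5a was at -0.75 and Cox7c at 0.58.

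Several complex IV subunits exist as isoforms of separate genes, and the table shows which were present. Cox6a1, the widely expressed form, made up 94.9% of the Cox6a transcripts in the zygote and 97.3% in PB2, and the heart and muscle form Cox6a2 was at 36.5 and 32.6 TPM. Cox6b2, known as the testis form, outweighed Cox6b1 in both libraries. It stood at 583.1 TPM in the zygote and 510.4 in PB2, while Cox6b1 was at 165.3 and 91.0 TPM, so the share of Cox6b2 was 77.9% and 84.9%. Cox7a2 was at 378.9 TPM in the zygote and 278.2 in PB2, Cox4i1 at 66.7 and 40.2 TPM, and Cox7b at 43.0 and 50.9 TPM. Of the alternative forms, Cox4i2, Cox7a1, Cox7b2, Cox8b and Cox8c were not analysed here.

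ATP synthase has a catalytic head, F1, that makes ATP on the matrix side and a membrane part, Fo, that carries protons and is joined to the head by stalks. All 17 listed nuclear genes were in the table, and the 16 subunits had a median of -0.54, with 11 below 0. Past 2-fold were 2 toward the zygote (12.5%) and 1 toward PB2 (6.25%), against 8.09% and 18.9% of all genes. The medians of head and membrane part lay apart. The 5 subunits of the head summed to 393.2 TPM in the zygote and 565.9 in PB2, with a median log2 ratio of 0.02, while the 11 of the membrane part and stalks summed to 1040 TPM and 652.1 TPM, with a median of -0.69. Atp5b, the beta subunit with the catalytic sites, was at 131.9 TPM in the zygote and 268.5 in PB2 (1.02). Atp5a1, the alpha subunit that alternates with it in the head, was at 97.1 and 181.0 TPM (0.89). The other head subunits were not raised, with Atp5c1 at 105.2 and 59.7 TPM, Atp5d at 7.8 and 7.9 TPM and Atp5e at 51.2 and 48.8 TPM. With the GC trend subtracted the medians were -0.68 for the head and -0.99 for the membrane part and stalks, and with both trends subtracted 0.23 and -0.32. None of these differences between groups of subunits was tested.

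Of the membrane part, Atp5mpl was at 401.1 TPM in the zygote and 185.3 in PB2 (-1.11), and Atp5l, the g subunit, at 167.7 and 81.6 TPM (-1.03). The proton-carrying c subunit is made from 3 genes whose mature proteins are the same. Atp5g1 was at 22.6 and 20.1 TPM in zygote and PB2, Atp5g2 at 43.6 and 44.1 TPM, and Atp5g3 at 37.2 and 22.6 TPM, so Atp5g2 gave 42.2% of the c subunit transcripts in the zygote and 50.8% in PB2. The remaining 9 subunits of complex V lay between -0.93 and 0.09. Atp5s was at 2.9 TPM in the zygote and 2.3 in PB2. Chain genes that the choice by symbol missed behaved alike in part. Usmg5, another small subunit of ATP synthase, was at 69.3 TPM in the zygote and 35.0 in PB2 (-0.97), its inhibitor Atpif1 at 14.4 and 5.9 TPM (-1.16), and Dmac2, an assembly factor of complex I once named after ATP synthase, at 25.6 and 37.8 TPM (0.54).

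A written list of 11 nuclear core subunits around the redox centres and the sites of ATP synthesis had a higher median than the other nuclear chain genes. It does not hold every core subunit. The membrane anchors of complex II, Sdhc (-0.51) and Sdhd (-0.76), were left off it and count among the others, so the contrast depends on the choice of members. The list holds nuclear genes only. The mitochondrially encoded cytochrome b and catalytic subunits of complex IV, mt-Cytb, mt-Co1 and mt-Co2, had log2 ratios of -1.35, -1.26 and -1.05. The list of 11 such nuclear subunits, written with earlier results of these data known and given as a description, was Ndufs1, Ndufs3, Ndufs7, Ndufs8, Ndufv1, Ndufv2, Sdha, Sdhb, Uqcrfs1, Atp5a1 and Atp5b. It had a median log2 ratio of 0.23, with 6 above 0 and 5 below. Of the 11, 3 (27.3%) were past 2-fold toward PB2 and 1 (9.09%) toward the zygote, against 18.9% and 8.09% of all genes. Summed, the 11 held 479.2 TPM in the zygote and 732.4 in PB2. The 66 nuclear chain genes outside the list, Sdhc and Sdhd among them, had a median of -0.63, with 11 above 0. Of the 66, 1 was past 2-fold toward PB2 and 16 toward the zygote. The 11 had longer transcripts, with a median of 1661 nt against 760 nt, and a higher GC content, 53.8% against 50.4%. With the GC trend subtracted the median of the 11 turned to -0.68, with 0 past 2-fold toward PB2, beside -0.98 for the 66. With the GC and then the length trend subtracted, the medians were -0.02 for the 11 and -0.31 for the 66.

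**Figure D4:**
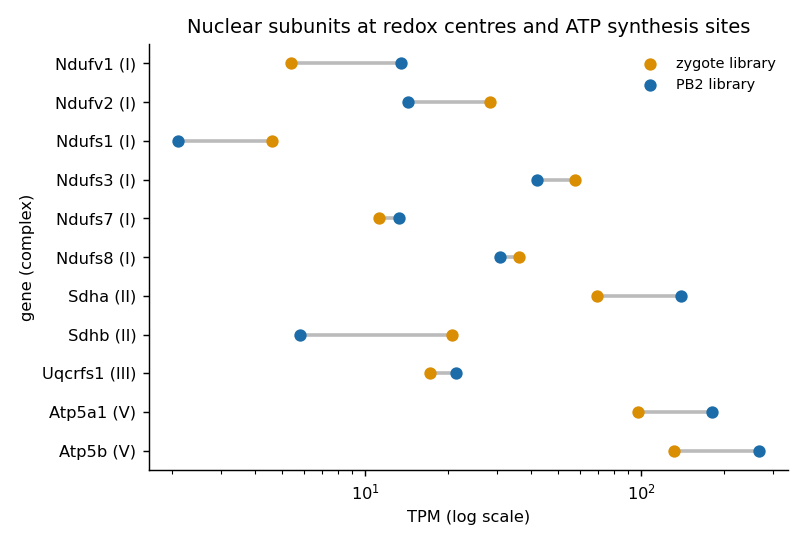
TPM (x axis, log scale) of the 11 listed nuclear core subunits around redox centres and sites of ATP synthesis in the zygote library (orange) and the PB2 library (blue), with the complex in parentheses and a grey line joining the 2 values of each gene. The blue point lies to the right of the orange one in 6 of 11 genes, by the widest step in Ndufv1, and to its left by the widest step in Sdhb.

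The mitochondrial genome encodes 13 proteins of the chain, and 11 of them had a row in the table; mt-Nd4l and mt-Atp8 were not analysed here. The highest was mt-Cytb, cytochrome b of complex III, with 7676 TPM in the zygote and 3017 in PB2 (-1.35), the lowest log2 ratio of the 11. Next came 3 transcripts of complex I and IV core subunits, mt-Nd1 with 4201 TPM in the zygote and 2188 in PB2 (-0.94), mt-Nd2 with 2418 and 1409 TPM (-0.78) and mt-Co1 with 2376 and 990.7 TPM (-1.26). mt-Nd4 was at 1920 and 831.2 TPM (-1.21), mt-Nd5 at 732.2 and 411.4 TPM (-0.83), and mt-Nd6, the only one of the proteins encoded on the opposite strand, at 363.7 and 207.4 TPM (-0.81). All 7 were lower in PB2.

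The last 4 stood far below these in both libraries. mt-Atp6 was at 63.7 TPM in the zygote and 38.7 in PB2 (-0.70), mt-Co2 at 44.9 and 21.1 TPM (-1.05) and mt-Co3 at 14.3 and 7.5 TPM (-0.85). mt-Nd3 was at 22.1 TPM in the zygote and 28.9 in PB2 (0.37), the only mitochondrial transcript that was higher in PB2. In the genome all 4 lie on the same strand as mt-Co1 and mt-Nd4, between these 2 genes, from base 7013 to base 9806 of chromosome M in GRCm38.

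These 4 are also the 4 for which a search of annotated transcripts found a nuclear copy of nearly the whole length. A stretch of chromosome 1 in GRCm38, on the minus strand, carries a copy of this segment of mitochondrial DNA, annotated as a row of pseudogenes. It includes Gm28661, a copy of mt-Co2 (chr1:24614885-24615565), Gm10925, a copy of mt-Atp6 (chr1:24613974-24614651), Gm28437, a copy of mt-Co3 (chr1:24613189-24613971), and Gm28438, a copy of mt-Nd3 (chr1:24612775-24613119). Each covers between 99.1% and 99.9% of its mitochondrial gene. Copies of parts of neighbouring genes lie at the ends, Gm28439 over 63.6% of mt-Nd4 and Gm29216 over 31.3% of mt-Co1. No nuclear copy was found for the other 5 genes in this search. It covered annotated transcripts only, at 98% identity or more over at least 100 bases, so other copies could be missed. None of the 6 pseudogenes had a row in the table.

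The copies are nearly identical to the mitochondrial genes, as the first 60 bases of each coding strand show. They are printed for mt-Nd3 and mt-Co2 with their nuclear copies. Those of mt-Cytb, for which no copy was found, are printed because it is the most abundant of the 11. Capitals mark the only base at which mt-Nd3 and its copy differ over the 345 bases they share, T3C, counted from the first base of mt-Nd3, with the mitochondrial base first. mt-Co2, mt-Atp6 and mt-Co3 differ from their copies at 0 of 681, 678 and 783 bases. Over the parts that are copied, mt-Nd4 differs at 0 of 876 bases and mt-Co1 at 1 of 483, A1066T.
mt-Nd3: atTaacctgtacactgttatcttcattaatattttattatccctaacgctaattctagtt
Gm28438: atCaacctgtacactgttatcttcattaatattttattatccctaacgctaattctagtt
mt-Co2: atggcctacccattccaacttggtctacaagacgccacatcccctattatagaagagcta
Gm28661: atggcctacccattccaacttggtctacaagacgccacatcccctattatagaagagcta
mt-Cytb: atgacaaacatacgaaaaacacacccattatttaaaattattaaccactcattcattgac

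Reads from sequences this alike fit both places, and how such reads were counted is not given in the sources used here. The levels of these 4 genes are therefore uncertain in each library, and those of mt-Nd4 and mt-Co1 are so over their copied parts. The part that shared sequence plays in the low values of the 4 was not tested. The 4 genes with a whole copy summed to 145.0 TPM in the zygote and 96.2 in PB2, with a median log2 ratio of -0.78. The 7 others summed to 19686 and 9054 TPM, with a median of -0.94 and all 7 below 0. Of these 7, mt-Nd4 and mt-Co1 have a partial copy, and they summed to 4296 and 1822 TPM, with a median of -1.23. The 5 for which no copy was found summed to 15390 and 7233 TPM, with a median of -0.83. The fall in the mitochondrial sum thus rests on the 7. Whether the counting used strand is likewise not given, so reads of mt-Nd6 cannot be told apart from those of the opposite strand, and mt-Nd6 overlaps mt-Nd5 at its end.

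**Figure D5:**
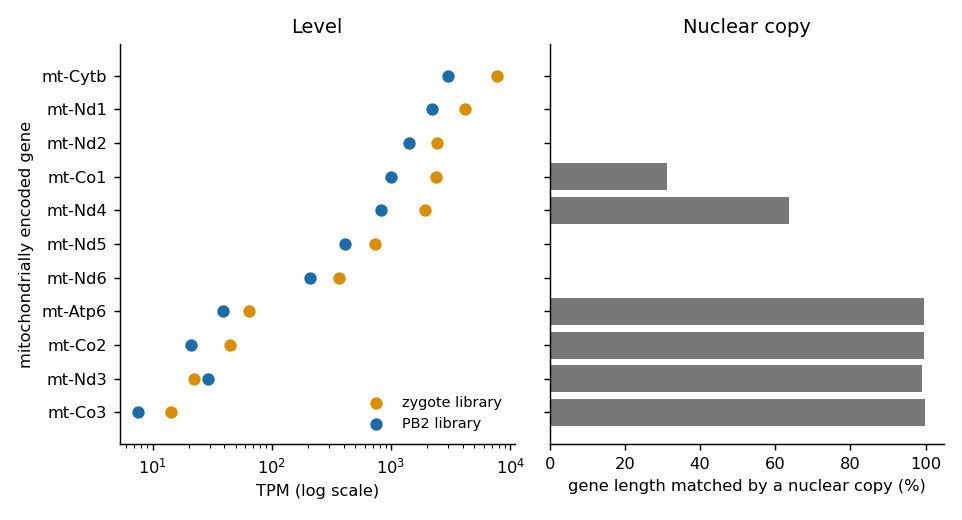
Left, TPM (x axis, log scale) of the 11 mitochondrially encoded genes in the zygote library (orange) and the PB2 library (blue), sorted by level in the zygote; right, the percent of each gene's length (x axis) matched by a nuclear pseudogene at 98% identity or more. The 4 genes with bars above 99% are the 4 with the lowest levels, and the 7 above them are all lower in PB2.

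Mitochondrial and nuclear transcripts could not be ranked against each other. The mitochondrial median lay below the nuclear one by 0.34 on the log2 scale as measured. Mitochondrial genes have a median GC content of 37.1%, far below the 51.1% of the nuclear chain genes, and with the GC trend subtracted the order turned, to a mitochondrial median of -0.46 against -0.95. With both trends subtracted the mitochondrial median was above 0, at 0.18. The position of the mitochondrial group relative to other genes therefore depended on this choice. The fall in TPM of each of the 7 genes for which no whole copy was found is as measured.

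Nuclear pseudogenes touch some nuclear members as well. A search of all mouse transcripts of GENCODE M21 found a processed or other pseudogene sharing at least 100 bases at 98% identity for 14 of the 78 nuclear chain genes. Their median log2 ratio was -0.85, with 6 past 2-fold toward the zygote (42.9%). For the 64 for which none was found the median was -0.45, with 11 past 2-fold toward the zygote (17.2%). The share over all genes was 8.09%. The 6 with a copy were Uqcrb, Ndufa12, Ndufb4, Cox7a2l, Ndufs5 and Atp5l. The values of all 14 are uncertain because of such copies. Among the 14 are Ndufs3, matched over 75.7% of its length, and Atp5h, matched over 71.1%. Ndufs3 is also one of the complex I core subunits and of the list of 11 above. For the 5 genes past 2-fold toward PB2 no such copy was found. Ndufb5 also shares its first 216 bases with Mrpl47 on the opposite strand, which was at 83.2 TPM in the zygote and 84.9 in PB2, and without strand their reads cannot be told apart there. Likewise Ndufb6 shares 257 bases with Smim27 on the opposite strand, and Cox5b shares 390 bases at 99.2% identity with Gm11273, a copy annotated as protein-coding, and neither partner had a row in the table. Other members overlap a gene on the opposite strand too, such as Uqcrc2 with Pdzd9 over 507 bases and Cox4i1 with Emc8 over 154. Emc8 was at 15.2 TPM in the zygote and 26.6 in PB2.

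Genes that serve the chain from outside these complexes lay on both sides of 0. Hand-written lists held 104 of them, of which 82 were compared, with a median log2 ratio of 0.01, 41 above 0 and 40 below. Past 2-fold were 13 toward PB2 (15.9%) and 9 toward the zygote (11.0%), close to the 18.9% and 8.09% of all genes. Genes for the synthesis of coenzyme Q, the ubiquinone that carries electrons to complex III, had a median of 0.87. Of the 11 compared, 7 lay above 0 and 4 below. Those past 2-fold were 4 toward PB2 (36.4%) and 0 toward the zygote, against 18.9% and 8.09% of all genes. Coq2, which joins the tail to the ring, was at 5.5 TPM in the zygote and 33.9 in PB2 (2.42), and Coq10a at 8.3 and 29.7 TPM (1.72). The lowest of the list, Pdss2, which helps to make the tail, was at 61.7 and 37.5 TPM (-0.70). With the GC trend subtracted the median of the list was 0.53, with 1 gene past 2-fold toward PB2 and 1 toward the zygote. With both trends subtracted the median was 0.58.

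The carrier between complexes III and IV is cytochrome c, and both of its genes were lower in PB2. Cycs, the somatic form, was at 90.7 TPM in the zygote and 53.5 in PB2 (-0.75), and Cyct, the testis form, at 15.3 and 4.6 TPM (-1.54). Cyc1, cytochrome c1 of complex III, was higher, at 2.6 and 5.9 TPM (0.94). For the assembly factors of the later complexes the medians were close to 0. They were 0.08 over 9 genes for complexes II and III, 0.03 over 17 genes for complex IV and 0.07 over 3 genes for complex V. Single factors were far from it. Sdhaf4, which acts on the flavoprotein of complex II before Sdhb joins, was at 251.4 TPM in the zygote and 83.0 in PB2 (-1.59), at the bottom of its list, and Ttc19, a factor of complex III, at the top with 2.9 and 6.7 TPM (0.98). For complex IV, Cox18, which inserts mt-Co2 into the membrane, was at 52.4 and 135.3 TPM (1.35) and Coa4 at 8.4 and 1.7 TPM (-1.80). For complex V the range was from Tmem70 (85.6 and 83.9 TPM) to Atpaf1 (8.8 and 11.0 TPM).

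Factors that copy, transcribe and process the mitochondrial genome were spread widely, with a median of -0.03 over 27 genes. Of the 27, 7 (25.9%) were past 2-fold toward PB2 and 3 (11.1%) toward the zygote, against 18.9% and 8.09% of all genes. With the GC trend subtracted the counts were 2 and 2, against 9.53% and 10.5% of all genes. Polrmt, the mitochondrial RNA polymerase, was at 4.3 TPM in the zygote and 11.3 in PB2 (1.21), while Tfam, which packages mitochondrial DNA and starts transcription with it, was at 10 and 5.0 TPM (-0.87). The elongation factor Tefm was at 4.9 TPM in the zygote but is listed at 0 for PB2, the lowest log2 ratio of the list. The highest was that of Fastk, at 1.7 TPM in the zygote and 7.6 in PB2 (1.67). Supv3l1, a helicase of mitochondrial RNA breakdown, was at 31.5 and 90.2 TPM (1.49). Polrmt, Tfam and Supv3l1 were picked out after their values were seen. Of 11 nuclear regulators of mitochondrial genes 4 were compared, all above 0, from Gabpb1 (21.3 and 26.6 TPM, 0.31) to Pprc1 (1.4 and 4.0 TPM, 1.06), with Nrf1 at 17.2 and 24.8 TPM. Creb1 (0.4 and 0.2 TPM) and Gabpb2 (0.7 and 0.5 TPM) were lower in PB2 but under 1 TPM in both libraries, so they were not compared. With the GC trend subtracted the median of the 4 was 0.26, and Ppargc1b among them was at -0.02.

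The other large mitochondrial group encoded in the nucleus, the mitochondrial ribosomal proteins, had a median below 0 as well. It was -0.39 over 75 compared genes, with 6 past 2-fold toward PB2 (8% against 18.9% of all genes) and 8 toward the zygote (10.7%, near the 8.09% of all genes). The 77 cytosolic ribosomal proteins had a median of -0.11. Their transcripts are as short as those of the chain (937 nt against 870 nt in the median). Past 2-fold were 2 of the 77 toward PB2 and 4 of the 77 toward the zygote. Both were smaller shares than the 18.9% and 8.09% of all genes. With the GC and then the length trend subtracted, the medians were -0.22 for the mitochondrial ribosomal proteins and 0.15 for the cytosolic ones, beside -0.24 for the nuclear chain genes. Differences between these groups were not tested.

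Promoters of nuclear chain genes are known to carry sites of nuclear respiratory factor 1 (NRF-1), of ETS factors such as GABP, and of YY1. RefSeq promoters (GRCm38.p6, from 250 bases before to 50 bases after the start) were matched for 69 of the 85 nuclear members. The NRF-1 half-site GCGCA, followed directly by its reverse complement, was in 7 of these (10.1%), against 2.38% of 8911 table genes and 0.971% of all 32851 windows. The ETS letters CCGGAAG on either strand were in 17 (24.6%), against 20.2% and 8.86%, and the YY1 letters AAGATGGCG in 8 (11.6%), against 3.60% and 1.40%, and no ETS match shared letters with a YY1 match, although the promoters of Atp5j and Ndufaf8 held both. The 7 with the NRF-1 site letters were Atp5g2, Atp5k, Cox6a1, Ndufa11, Ndufaf4, Ndufaf5 and Uqcrc1, with log2 ratios from -1.12 to 1.00, 3 above 0 and 4 below. Of the 17 with the ETS letters 15 were below 0 (median -0.66), and of the 8 with the YY1 letters 6 were (median -0.70), beside 59 of the 78 nuclear chain genes and all 7 Ndufaf factors. A match of letters is a description of the window and not of binding.

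The promoters of 3 of the 7 are printed, on the strand of the gene, because they span that range, with the highest and the lowest log2 ratio in Uqcrc1 and Ndufaf5 and the highest level in Cox6a1. Capitals mark the NRF-1 site letters, which begin 162 bases before the start in Cox6a1, 30 bases after it in Uqcrc1 and 16 bases after it in Ndufaf5.
Cox6a1, chr5:115348909-115349208, minus strand: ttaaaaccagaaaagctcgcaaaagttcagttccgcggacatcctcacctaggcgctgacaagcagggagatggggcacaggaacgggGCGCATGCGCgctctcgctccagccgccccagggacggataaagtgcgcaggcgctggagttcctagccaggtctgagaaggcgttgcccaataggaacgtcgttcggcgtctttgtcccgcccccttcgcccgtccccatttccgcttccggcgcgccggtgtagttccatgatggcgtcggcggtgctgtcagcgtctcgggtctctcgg
Uqcrc1, chr9:108936398-108936697, plus strand: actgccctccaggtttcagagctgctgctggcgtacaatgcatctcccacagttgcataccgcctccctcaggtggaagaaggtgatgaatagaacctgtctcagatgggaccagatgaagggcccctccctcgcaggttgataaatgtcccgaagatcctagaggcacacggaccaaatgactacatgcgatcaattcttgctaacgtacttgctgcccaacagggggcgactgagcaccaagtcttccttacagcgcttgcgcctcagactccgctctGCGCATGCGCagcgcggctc
Ndufaf5, chr2:140170396-140170695, plus strand: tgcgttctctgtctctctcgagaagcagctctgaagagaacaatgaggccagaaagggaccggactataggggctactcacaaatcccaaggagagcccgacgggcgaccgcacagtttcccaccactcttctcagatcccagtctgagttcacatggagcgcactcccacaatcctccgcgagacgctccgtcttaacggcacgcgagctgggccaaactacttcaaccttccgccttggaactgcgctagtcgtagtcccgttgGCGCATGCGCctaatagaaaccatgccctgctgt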

How the data were processed

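RNA-seq of 1 PB2 library and 1 zygote library was analysed. According to the study's methods and the submitters' processing notes, the authors called bases with CASAVA, aligned reads with HISAT2 2.0.4, counted reads per gene with HTSeq 0.6.1p1 on the Ensembl annotation 85 and normalized with DESeq2 1.18.1. The reference named in the methods is OryCun2.0, a rabbit assembly, whereas the processing notes also list GRCm38 and the identifiers of the table are of the mouse. The deposited values are TPM, rounded by the authors to 1 decimal; how they were computed is not given in the sources used here. Both value columns were matched to their samples by name, and 0 columns were left over. Depth is unknown and no counting interval can be given.

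The log2 ratio used a pseudocount of 1 TPM, genes with at least 1 TPM in either library were compared, and a 2-fold difference on that scale was counted. Groups were described by counts and medians beside those of all genes, and no test was run. The longest protein-coding transcript in GENCODE M21, found for 11221 identifiers, gave each gene's GC content and length, and loess curves (span 0.3) gave the trends. Near-identical copies were searched with blastn 2.17.0 among all GENCODE M21 transcripts, with at least 98% identity over 100 bases. The computation was checked on simulated data. Tools were Python 3.11.15 with statsmodels 0.14.6 for loess, scipy 1.17.1 for correlations, pandas 2.3.3, numpy 2.4.6 and matplotlib 3.10.9.

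Genes were named by a fixed rule. It takes all mitochondrially encoded genes, every nuclear member past 2-fold, the core subunits, the isoform pairs, the highest and lowest log2 ratio (at 10 TPM or more) and the most abundant member of each complex and of the Ndufaf factors, and the ends of each list outside the complexes. Other members named with values were added after these were seen. Members, lists and alternatives were chosen with earlier results of these data known. The alternatives were other pseudocounts, filters, scalings and thresholds, and the removal of GC and length trends. The values of 1 member are not reported here, and it was left out of the core subunits described as groups.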

Additional observations from a re-analysis of the deposited data

How the results depend on the processing

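No paired analysis was possible because PB2 and zygote have 1 library each, and neither could be left out. Of 142 comparisons of a value with an alternative, 3 turned sign, 25 moved beyond the limits set (1.5 times for a count, the interval of the median over genes for a median), and 114 kept their direction within those limits, which are wide for the small complexes. The causes were not tested. The nuclear count past 2-fold toward PB2, 5 as reported, was 2 with the zygote scaled to a median ratio of 1, 3 without the mitochondrially encoded genes, 3 also without the 50 most abundant genes, 1 when centred on the median, 0 with the GC trend removed, 3 with the GC and then the length trend removed (an alternative chosen after seeing the data), 8 at a threshold of 1.5-fold and 0 at 4-fold. The nuclear count past 2-fold toward the zygote, 17 as reported, was 26 when centred, 30 with the GC trend removed, 11 with the length trend removed, 6 with both removed, 37 at 1.5-fold and 0 at 4-fold. Over all genes the shares toward the zygote were 11.8% with the length trend removed, which 11 of 78 is near, 18.1% at 1.5-fold and 0.695% at 4-fold. The all-gene shares toward PB2 were 34.2% at 1.5-fold and 2.48% at 4-fold. They were 16.7% with the zygote scaled, 18.3% without the mitochondrially encoded genes and 18.1% also without the 50 most abundant genes. The nuclear median of -0.51 moved to -0.95, -0.23 and -0.24 with the GC trend, the length trend and both removed, and complex I from -0.46 to -0.89, -0.18 and -0.27. In the same order complex II went from -0.64 to -0.82, -0.75 and -0.64, complex III from -0.81 to -1.29, -0.20 and -0.38, complex IV from -0.58 to -0.91, -0.13 and -0.03, and complex V from -0.54 to -0.99, -0.28 and -0.26. The mitochondrial median of -0.85 moved to -0.46 and -0.60 and turned to 0.18 with both removed, and its difference from the nuclear median, -0.34, turned to 0.49 without the GC trend and 0.42 without both. Without the mitochondrial and the 50 most abundant genes, nuclear chain genes held 1.18% of PB2 and 1.49% of the zygote. Changes of the pseudocount and the filter moved no count or median given here beyond these limits.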
